A study of Mus musculus with 60 samples.

Results

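Genes for 9 cortical neuropeptides (Sst, Npy, Vip, Penk, Cck, Tac1, Crh, Pdyn and Cort) were followed through RNA-seq libraries of mouse prefrontal cortex. They were chosen by name from the 55414 genes of the deposited table, and each name had 1 row. All 9 passed the filter on low counts in every fit. All groups were inbred DBA2/J mice expressing GFP-L10a, a fluorescently tagged protein of the ribosome, and the tissue was the medial prefrontal cortex (mPFC). IP libraries hold RNA pulled down with an anti-GFP antibody, with the cell type labelled aPVT projector, and Input libraries hold bulk mPFC RNA taken with no antibody. Each fraction was divided into 5 groups, the subtypes SA, ANH, SA:ANH and RES beside NS, with 6 libraries in each of the 10 combinations. The series describes 5 days of social defeat, and the labels say neither what the group names stand for nor which groups were defeated. The labels read here give neither the age of the mice nor how the tag was restricted to projecting cells.

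Neuropeptides are cut from larger precursor proteins inside dense-core vesicles, released during strong activity and sensed by G protein-coupled receptors. In the cortex most are made by GABAergic interneurons and serve as names of interneuron classes: Sst and Vip cells are separate classes, Npy and Tac1 are found in several, and Cort and Crh in parts of them. Cck is the exception, since pyramidal neurons carry much of its transcript, and Penk and Pdyn are made by both interneurons and some pyramidal cells. A ribosome pulldown from projection neurons and a bulk extract therefore sample these genes from different mixtures of cells.

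Several of these genes are textbook targets of the cAMP response element (CRE), a promoter sequence bound by CREB when neurons are active, and their promoters are shown because Sst, Npy and Cck are among the genes called in most comparisons of IP groups, with Vip for contrast. Windows of 250 bases before to 50 after the gene start were taken from RefSeq, build GRCm38.p6, where 7 of the 9 genes had a window; Penk and Crh are named only. The 250 bases before the start are printed 5′ to 3′ on the gene's strand, with any match to TGACGTCA (the full CRE), TGCGTCA (a shorter form) or TGACG (the first bases of the full CRE), on either strand, in capitals. The shorter forms overlap, since the full CRE holds TGACG on both strands and TGCGTCA holds it on the opposite strand.
Sst, chr16:23890845-23891094, minus strand: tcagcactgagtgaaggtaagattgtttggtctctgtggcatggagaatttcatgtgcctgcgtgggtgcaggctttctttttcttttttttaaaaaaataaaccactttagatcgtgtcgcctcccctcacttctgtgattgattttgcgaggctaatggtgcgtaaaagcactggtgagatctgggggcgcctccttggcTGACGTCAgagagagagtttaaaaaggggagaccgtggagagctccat
Npy, chr6:49822460-49822709, plus strand: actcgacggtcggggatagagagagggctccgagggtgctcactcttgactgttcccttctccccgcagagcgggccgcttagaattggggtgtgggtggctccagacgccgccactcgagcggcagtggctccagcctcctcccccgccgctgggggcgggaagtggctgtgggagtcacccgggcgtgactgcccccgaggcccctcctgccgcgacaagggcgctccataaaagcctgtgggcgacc
Cck, chr9:121495695-121495944, minus strand: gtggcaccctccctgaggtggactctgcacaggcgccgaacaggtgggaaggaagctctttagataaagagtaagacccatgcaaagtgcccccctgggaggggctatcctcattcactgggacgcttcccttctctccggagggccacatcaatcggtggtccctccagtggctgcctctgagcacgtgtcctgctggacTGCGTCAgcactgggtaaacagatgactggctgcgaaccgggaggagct
Vip, chr10:5638968-5639217, plus strand: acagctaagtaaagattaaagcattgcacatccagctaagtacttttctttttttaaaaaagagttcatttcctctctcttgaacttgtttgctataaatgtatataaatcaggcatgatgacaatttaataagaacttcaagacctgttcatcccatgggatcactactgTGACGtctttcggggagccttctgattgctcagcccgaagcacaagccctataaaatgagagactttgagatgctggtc

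The full CRE was found in the Sst window alone among the 7 genes, 48 bases upstream of the start, and 1.79% of the 32851 RefSeq windows hold it. The shorter TGCGTCA was found in Cck (49 bases upstream), Cort (20) and Tac1 (199), against 2.12% of all windows. The sequence TGACG on either strand was found in Sst, Cck, Cort, Tac1 and Vip (79 bases upstream), against 20.8% of all windows. Neither the Npy window nor the 2 Pdyn windows held any of these letters.

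Library totals lay between 19078906 and 27073413 counts, and levels are given as CPM, counts scaled to library size over all 60 libraries. Mitochondrially encoded genes took 0.0177% to 0.0507% of the counts in IP libraries and 1.35% to 2.13% in Input libraries. Of 15 excitatory neuron markers 13 were higher in IP than in Input, and all 12 oligodendrocyte, 12 astrocyte, 12 microglial and 12 endothelial or mural markers were lower. Inhibitory neuron markers, members left out, were lower in IP for 27 of 29 tested genes. The GABA-synthesizing enzyme Gad1, which defines the class, stood at -4.14 ± 0.06 on the log2 scale (IP minus Input). The labels do not say whether each library is a separate animal, so p-values here measure only the spread between libraries, which may be technical.

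Against the bulk extract, the pulldown held far less of Sst, Npy, Vip, Tac1, Crh and Cort in every group. The size of the difference varied with the group, for Sst and Npy as well as for Penk and Cck. Of the 9 genes 8 were called lower in IP and 1 higher (edgeR quasi-likelihood test, Benjamini-Hochberg adjusted p under 0.05), where 75.4% of the 18937 genes tested were called, 42.6% lower and 32.8% higher. Their median difference was -2.97, beside -0.08 over all genes tested. Every IP library lay below every Input library for Sst, Npy, Vip, Tac1, Crh and Cort, while the fractions overlapped for Penk, Cck and Pdyn. Of all genes tested 7.56% had every IP library below every Input library, and 6.75% had every IP library above. In bulk material, fewer cells of a type and less RNA per cell cannot be told apart.

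**Figure D1:**
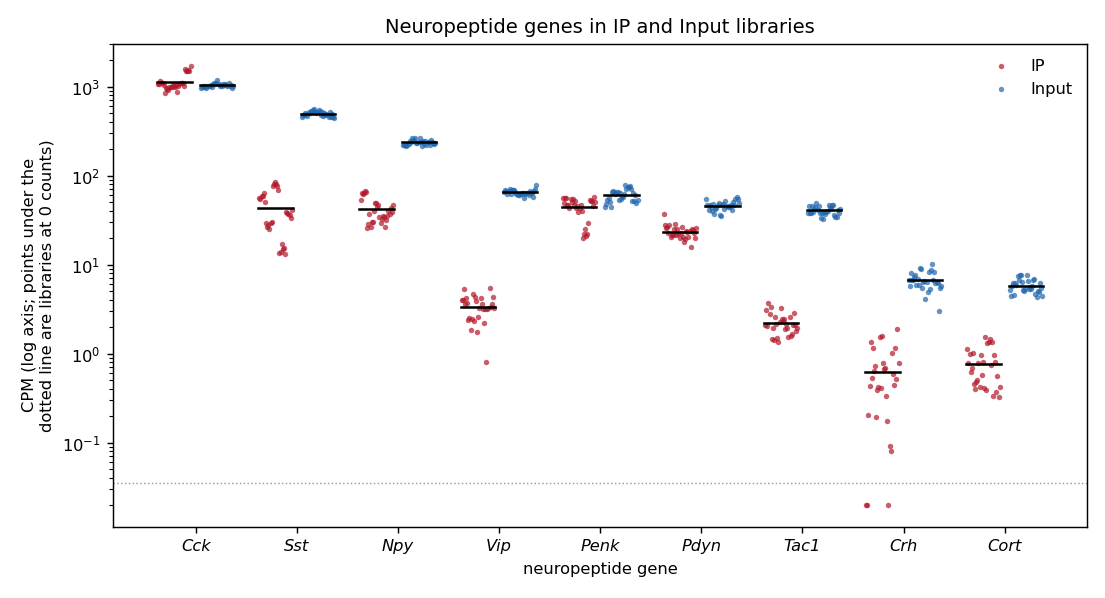
Level of each neuropeptide gene in CPM (log axis) in the 30 IP libraries (red) and the 30 Input libraries (blue), with the mean of each fraction as a black line. Points under the dotted line are the 3 IP libraries with 0 Crh counts; Sst, Npy, Vip, Tac1, Crh and Cort have separate fractions, and Penk, Cck and Pdyn overlap.

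Sst encodes somatostatin, an inhibitory peptide of dendrite-targeting interneurons, and Cort encodes the related cortistatin. Sst (ENSMUSG00000004366.5, chromosome 16, 23708323 to 23709708 in the table) ran from 13.2 to 84.0 CPM in IP, with a median of 37.9, and from 439 to 555 CPM in Input, with a median of 498. The difference was -3.75 ± 0.02 as a mean over the 5 groups (SE, log2, adjusted p = 4.01e-74 by edgeR). Cort (chromosome 4, 149209491 to 149211220) reached only 0.326 to 1.54 CPM in IP, which is 7 to 37 counts a library, against 4.36 to 7.68 CPM in Input. Its difference was -2.97 ± 0.12.

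Npy (ENSMUSG00000029819.7, chromosome 6, 49799690 to 49806487) encodes neuropeptide Y, made by neurogliaform cells and by some Sst cells. It ran from 26.0 to 67.2 CPM in IP and from 216 to 264 CPM in Input, a difference of -2.55 ± 0.03 as a mean over the 5 groups. The IP mean ranged from 11.8% of the Input mean in NS to 28.3% in ANH. Vip (chromosome 10, 5589218 to 5597617) encodes vasoactive intestinal peptide of disinhibitory interneurons and had the largest difference of the 9, -4.30 ± 0.07, with 0.813 to 5.43 CPM in IP and 56.2 to 79.3 CPM in Input. Tac1 (chromosome 6, 7554879 to 7565834), the substance P precursor, stood at -4.21 ± 0.06, with no IP library over 3.74 CPM and no Input library under 32.9 CPM. Crh (chromosome 3, 19747565 to 19749560), corticotropin-releasing hormone, stood at -3.52 ± 0.21 and was at 0 counts in 3 IP libraries, where a count of 0 allows up to 0.118 to 0.148 CPM. These 6 genes, with separate fractions, moved the same way as Gad1.

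Both opioid precursors were called lower in IP. Penk (ENSMUSG00000045573.10, chromosome 4, 4133531 to 4138819), the enkephalin precursor, ran from 19.9 to 57.7 CPM in IP and from 44.3 to 79.2 CPM in Input, a difference of -0.50 ± 0.03 as a mean over the 5 groups. The IP mean was 31.4% of the Input mean in SA, 73.8% in RES, 77.6% in NS, 93.9% in SA:ANH and 104.7% in ANH, and with the SA groups left out the difference was -0.21 (adjusted p = 7.06e-07 by edgeR). Its gene overlaps the antisense noncoding gene A830012C17Rik, which averaged 1.3 counts a library in IP and 1.4 in Input, and reads of the 2 cannot be told apart without a stated strand setting. Pdyn (chromosome 2, 129528485 to 129541764), the dynorphin precursor, ran from 15.9 to 36.6 CPM in IP and from 35.1 to 57.2 CPM in Input, a difference of -0.97 ± 0.05.

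Cck (ENSMUSG00000032532.8, chromosome 9, 121318890 to 121324760) encodes cholecystokinin and was the only one of the 9 called higher in IP, a call that rested on the SA:ANH groups. It ran from 838 to 1706 CPM in IP and from 966 to 1194 CPM in Input, a difference of 0.10 ± 0.02 as a mean over the 5 groups (adjusted p = 4.50e-08 by edgeR). The IP mean was 91.4% of the Input mean in RES, 91.8% in NS, 102.1% in SA, 110.9% in ANH and 150.8% in SA:ANH. Without the SA:ANH groups the difference was -0.018 and was not called (adjusted p = 0.366 by edgeR). Per kilobase of gene length it was the highest of the 9 in both fractions, at 1414 CPM per kilobase in IP and 1295 in Input. The next levels per kilobase in IP were Npy at 73.6, Sst at 59.7 and Penk at 30.4, and the next in Input were Sst at 690, Npy at 416 and Penk at 41.7. Crh was the lowest in both fractions, at 0.475 in IP and 5.04 in Input.

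Within the pulldown, Sst differed between every pair of the 5 groups, and Npy, Penk and Cck between most pairs. Sst was called in 10 of 10 pairs, Npy in 8, Penk and Cck in 6 each and Pdyn in 1, while Vip, Tac1, Crh and Cort were called in 0 of 10 by edgeR. At an unadjusted p under 0.05 these last 4 each had 2 of 10 pairs, and voom called Crh in 3 pairs and Vip in 1, and DESeq2 called Cort in 1. Against NS, 4.36% to 19.7% of all genes tested were called, and between the subtypes 9.21% (ANH against RES), 9.53% (SA:ANH against SA), 11.6% (SA against RES), 13.8% (SA:ANH against RES), 17.9% (SA:ANH against ANH) and 23% (SA against ANH). Over the 5 groups together, 4 of the 9 genes differed in IP, where 33.1% of all genes did.

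**Figure D2:**
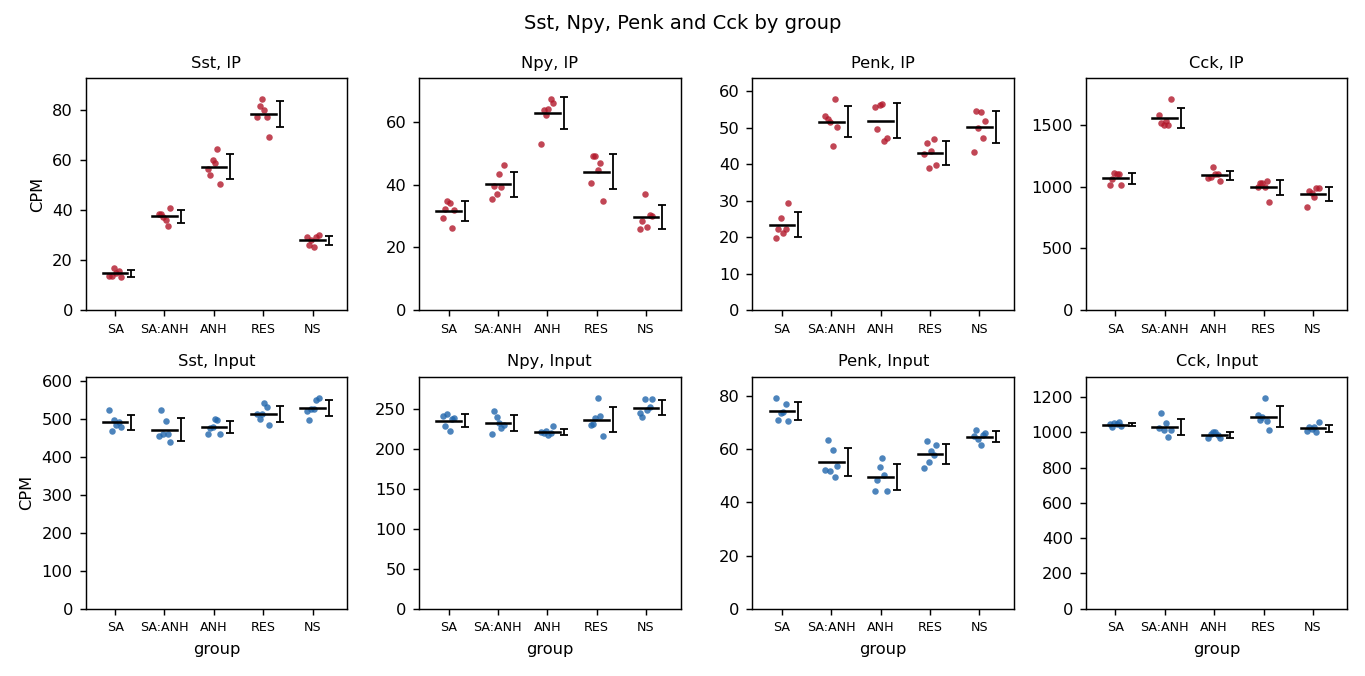
Level in CPM of Sst, Npy, Penk and Cck in each library of the IP groups (upper row) and Input groups (lower row). Black lines are group means and brackets the SD, n = 6; the 5 IP groups of Sst do not overlap, with SA lowest and RES highest, while Sst in Input stays between 439 and 555 CPM.

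Sst was lowest in the SA pulldown, at 13.2, 14.4 and 16.8 CPM (the lowest, median and highest of 6 libraries). In NS IP it was 25.02, 28.4 and 29.9 CPM, and in SA:ANH IP 33.5, 37.9 and 40.7 CPM. The 3 groups did not overlap, and the 2 remaining groups lay higher still. In ANH IP it was 50.3, 57.4 and 64.4 CPM, and in RES IP 69.1, 78.6 and 84.0 CPM. No pair of groups overlapped and each step in this order was called, and the mean ranged 5.35-fold from SA to RES. How many of all genes separate between groups in this way was not counted. Non-overlap of groups, for Sst and for the genes below, is therefore a description only. Against NS, Sst stood at -0.91 ± 0.08 in SA, 0.45 ± 0.07 in SA:ANH, 1.03 ± 0.07 in ANH and 1.49 ± 0.07 in RES (log2 ± SE, adjusted p at most 1.59e-05 by edgeR). As a share of the Input mean of the same group, the IP mean was 2.97% in SA, 5.25% in NS, 7.92% in SA:ANH, 11.9% in ANH and 15.2% in RES.

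Npy followed a different order of groups. It was 26.0, 29.2 and 37.0 CPM in NS IP and 26.2, 32.2 and 34.9 CPM in SA IP, and these 2 overlapped and did not pass the test (0.11 ± 0.09, adjusted p = 0.516 by edgeR). In SA:ANH IP it was 35.6, 39.4 and 46.2 CPM, and in RES IP 34.7, 45.9 and 49.0 CPM. These 2 overlapped as well, and both were called higher than NS, by 0.46 ± 0.09 and 0.58 ± 0.09. ANH IP was the highest group at 53.0, 64.1 and 67.2 CPM, above every library of the other groups, 1.07 ± 0.09 over NS.

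The ratio of 2 counts within 1 library does not depend on scaling between libraries. The Sst to Npy count ratio in IP was 0.947 ± 0.119 in NS, 0.938 ± 0.1001 in SA:ANH and 0.916 ± 0.104 in ANH (SD, n = 6). It was 0.467 ± 0.063 in SA and 1.78 ± 0.14 in RES. Both of these differed from NS at the smallest p that 6 against 6 libraries allow (two-sided exact permutation test, p = 0.00216, adjusted over 16 ratio tests 0.00433), and neither SA:ANH nor ANH did (exact permutation p = 0.90 and 0.662). In Input the same ratio lay between 1.91 and 2.30 in every library, and the 4 exact permutation tests against NS gave adjusted p of 0.126 to 0.706.

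Penk was lower in the SA pulldown than in the other 4 groups. It was 19.9, 22.2 and 29.3 CPM in SA IP and 43.4, 50.9 and 54.7 CPM in NS IP, a difference of -1.09 ± 0.08 (adjusted p = 9.51e-12 by edgeR) with no overlap. SA:ANH IP ran from 45.0 to 57.7 CPM, ANH IP from 46.2 to 56.4 CPM and RES IP from 39.1 to 47.0 CPM. These 3 groups overlapped with NS and were not called against it, at 0.07 ± 0.08, 0.04 ± 0.08 and -0.22 ± 0.08.

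Cck was highest in the SA:ANH pulldown, at 1500, 1521 and 1706 CPM against 838, 954 and 993 CPM in NS IP. The difference was 0.75 ± 0.04 (adjusted p = 3.82e-15 by edgeR), and every SA:ANH library lay above every library of the other IP groups. SA IP ran from 1012 to 1109 CPM and ANH IP from 1049 to 1157 CPM, and they were called higher than NS by 0.20 ± 0.04 and 0.21 ± 0.04. RES IP, at 876 to 1045 CPM, overlapped with NS and was not called (0.08 ± 0.04, adjusted p = 0.3202 by edgeR). Together with Penk this gave a Penk to Cck count ratio of 0.022 in SA, 0.033 in SA:ANH, 0.043 in RES, 0.048 in ANH and 0.053 in NS. All 4 subtypes differed from NS in this ratio (two-sided exact permutation tests, adjusted p of 0.00433 to 0.045 over the 16 ratio tests). In Input all 4 differed from NS as well, where the ratio was 0.0711 in SA, 0.0533 in SA:ANH, 0.0503 in ANH, 0.0538 in RES and 0.0632 in NS (exact permutation adjusted p of 0.00433 to 0.0077). SA was thus below NS in IP and above it in Input.

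Markers of cortical layers differed between these IP groups as well. The 14 upper layer and intratelencephalic markers summed to 786 to 854 CPM in SA:ANH IP, 723 to 787 in NS, 688 to 725 in ANH, 657 to 714 in RES and 610 to 665 in SA, with 5 called higher and 2 lower in SA:ANH than in NS. The 17 layer 5 extratelencephalic markers in the table summed to 1129 to 1215 CPM in SA:ANH IP, 1366 to 1411 in ANH, 1519 to 1642 in RES, 1704 to 1879 in NS and 1808 to 1969 in SA, and 11 of 15 tested were called lower in SA:ANH. For the 15 layer 6 markers the sums were 380 to 413 CPM in SA:ANH IP, 441 to 476 in ANH, 531 to 566 in RES, 526 to 600 in NS and 554 to 622 in SA, with 6 of 13 tested called lower in SA:ANH and 1 higher. Over all genes 19.7% were called between SA:ANH and NS in IP, in either direction. SA:ANH, the group highest in Cck, was highest in the upper layer sum and lowest in the other 2. The upper layer and layer 6 sums rest largely on few genes. Over the IP libraries Lamp5 averaged 352 CPM and Calb1 106.5 CPM in the upper layer list. Crym averaged 326 CPM and is in both the layer 5 and layer 6 lists, so those 2 sums are not independent. Of the 3 lists only the layer 5 list had a gene at 0 counts in SA:ANH IP. Their part in the Cck level was not tested.

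Vip, Tac1, Crh, Pdyn and Cort were not called against NS in any of the 4 subtypes in IP. Vip stood at 0.01 ± 0.27 in SA and up to 0.61 ± 0.27 in ANH, with 20 to 130 counts a library. Tac1 stood at 0.09 ± 0.24 to 0.62 ± 0.24 (29 to 78 counts a library), Pdyn at -0.10 ± 0.12 to 0.26 ± 0.12 (378 to 755 counts) and Crh at -1.04 ± 0.79 to 0.69 ± 0.76 (0 to 47 counts). Cort had its highest IP mean in SA, 1.09 ± 0.45 CPM against 0.508 ± 0.144 in NS (SD, n = 6), a difference of 1.12 ± 0.44 with adjusted p = 0.0793 by edgeR and 0.0415 by DESeq2. At this depth the SE reached 0.79 for Crh and 0.44 for Cort, against 0.09 for Npy.

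Counted by subtype, 3 of the 9 genes were called against NS in the SA pulldown (Cck higher, Sst and Penk lower), where 16.6% of the 16670 genes tested were called, 9.39% higher and 7.2% lower. In SA:ANH 3 were called, all higher (Sst, Npy, Cck), beside 19.7% of all genes (11.3% higher), and in ANH 3, all higher (Sst, Npy, Cck), beside 7.4% (3.02% higher). In RES 2 were called, both higher (Sst, Npy), beside 4.36% (2.25% higher). The 4 comparisons share the 6 NS libraries.

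**Figure D3:**
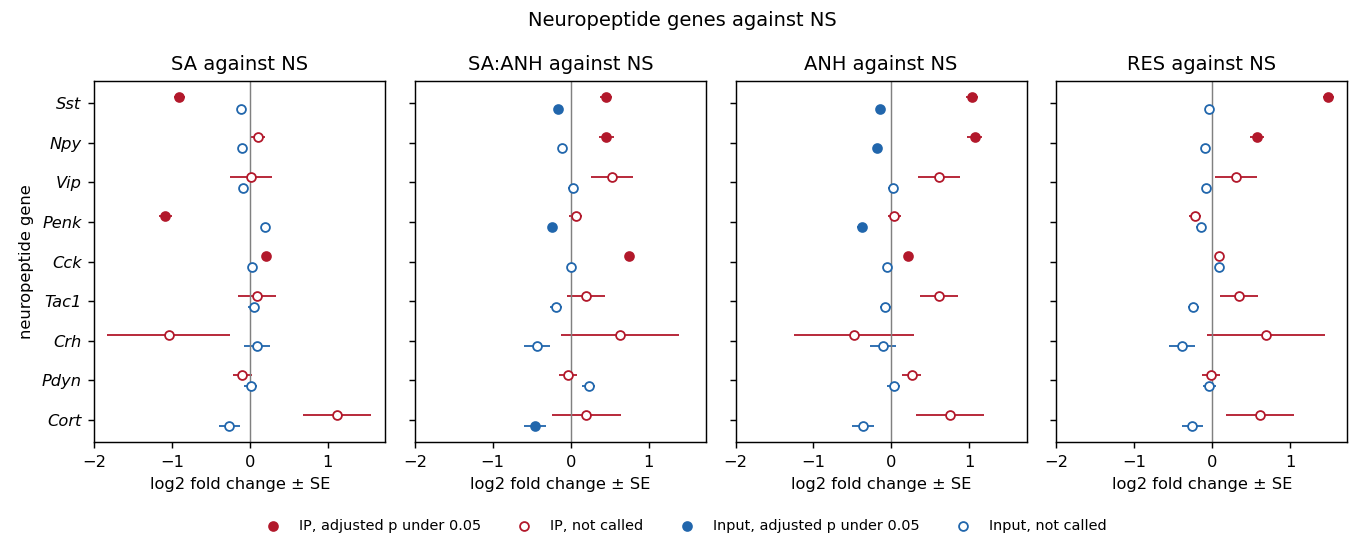
Difference of each subtype from NS for the 9 genes on the log2 scale, with the SE as bars, in IP (red) and Input (blue). Filled points have an adjusted p under 0.05; the called IP values span -1.09 (Penk in SA) to 1.49 (Sst in RES), and the called Input values span -0.46 (Cort in SA:ANH) to -0.14 (Sst in ANH).

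In bulk cortex the differences from NS were smaller than the largest in IP, and those called by edgeR were all downward. No gene of the 9 was called in SA or RES Input, where 2.83% and 3.23% of all genes were. At an unadjusted p under 0.05 there were 3 genes in SA and 5 in RES by edgeR, and DESeq2 called Penk higher in SA Input, and in RES Input Cck higher and Tac1 lower. In SA:ANH Input 3 genes were called lower (Sst, Penk and Cort; 5.65% of all genes called, 3.1% lower), and in ANH Input 3 (Sst, Npy and Penk; 2.62%, 1.05% lower). Over the 5 groups together, 5 of the 9 genes differed in Input (Sst, Npy, Penk, Cck and Tac1), where 12.9% of all genes did. Between the subtypes in Input, 6 of 54 tests of a member were called, 4 of them Penk, where 1.1% (SA against RES), 0.693% (SA:ANH against RES), 4.22% (ANH against RES), 3.54% (SA:ANH against SA), 1.64% (SA:ANH against ANH) and 7.88% (SA against ANH) of all genes were.

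Sst in Input was 499, 526.4 and 555 CPM in NS, 439, 460 and 523 CPM in SA:ANH and 461, 478 and 499 CPM in ANH. Its differences from NS, -0.17 ± 0.04 and -0.14 ± 0.04, were opposite in sign to those in IP, and the difference between the fractions was called in both (0.59 and 1.19). Npy in ANH Input was 217, 221 and 229 CPM against 240, 250 and 263 CPM in NS, a difference of -0.18 ± 0.04 with no overlap. Cort in SA:ANH Input, at 5.07 ± 0.68 CPM against 6.96 ± 0.74 in NS (SD, n = 6), stood at -0.46 ± 0.14 with adjusted p = 0.0440 by edgeR, which was 0.138 with no filter on low counts. Oligodendrocyte markers were higher in every subtype than in NS in Input: the 12 summed to 3013 to 3181 CPM in NS, 3253 to 3489 in SA:ANH, 3657 to 3793 in SA, 4365 to 4522 in RES and 5055 to 5244 in ANH. Of them 7 were called higher in SA, 4 in SA:ANH, 11 in ANH and 10 in RES, and none was at 0. Their part in the peptide levels of Input was not tested.

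Penk had the widest spread of group means of the 9 genes in bulk cortex, 1.498-fold from ANH to SA. It was 44.3, 49.4 and 56.6 CPM in ANH Input, 49.6, 52.9 and 63.4 CPM in SA:ANH Input and 61.4, 65.0 and 67.1 CPM in NS Input. ANH lay wholly below NS, at -0.38 ± 0.06 (adjusted p = 0.000103 by edgeR), and SA:ANH overlapped with it, at -0.24 ± 0.06. RES Input ran from 52.9 to 63.0 CPM, and SA Input, the highest, from 70.7 to 79.2 CPM, above every NS library but not called (0.20 ± 0.06, adjusted p = 0.0723 by edgeR). Penk in SA Input was called by voom (adjusted p = 0.0311), by DESeq2 (0.0230) and by edgeR on the 12 libraries alone (0.0263). Enkephalin is abundant in the striatum, which lies beneath the mPFC, and 14 striatal markers summed to 276 to 292 CPM in SA Input, 226 to 256 in NS, 232 to 255 in RES, 225 to 240 in SA:ANH and 215 to 245 in ANH. Most of the sum was 1 gene, Ppp1r1b, which averaged 146.5 CPM over the Input libraries. Of the 13 tested, 2 were called higher in SA Input, beside 2.83% of all genes called in either direction. Among the 2 was Ppp1r1b at 0.27 ± 0.05, and none of the 14 was at 0 in any Input group. Their part in the Penk level was not tested.

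In IP the same 14 markers summed to 119 to 144 CPM in SA, 126 to 152 in SA:ANH, 141 to 157 in ANH, 153 to 171 in RES and 176 to 207 in NS, with Ppp1r1b called lower in SA at -0.72 ± 0.06. Ppp1r1b averaged 72.6 CPM over the IP libraries, a large part of this sum. All 4 subtypes lay below NS in the sum, and Penk was called lower than NS in SA alone. The part of these markers in the IP level of Penk was not tested. Penk thus was lowest in the SA pulldown and highest in the SA bulk extract. The difference between the fractions was itself called, at -1.31 for Penk in SA (log2, IP change minus Input change). Over the 4 subtypes 14 such differences were called among the 9 genes, 4 in SA (9.05% of all genes), 3 in SA:ANH (15.2%), 5 in ANH (3.62%) and 2 in RES (2.69%).

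Markers of other cells moved between the IP groups beside Sst. The 12 oligodendrocyte markers, which include the myelin genes Mbp and Mog and of which none was at 0 in any group, summed to 224 to 244 CPM in SA IP, 162 to 189 in SA:ANH, 272 to 318 in NS, 743 to 782 in ANH and 1085 to 1216 in RES. All 12 were called higher in ANH and in RES than in NS, and 7 and 9 lower in SA and SA:ANH. ANH and RES, the groups highest in this list, were also highest in Sst, whereas SA:ANH was lowest in the list and above NS in Sst. The part of this in the Sst level was not tested.

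The summed level of inhibitory neuron markers without the members was highest in NS, but most of that sum was Lamp5 and Nos1. The 30 genes summed to 484 to 531 CPM in SA IP, 482 to 516 in SA:ANH, 471 to 513 in ANH, 494 to 530 in RES and 589 to 633 in NS. Lamp5 and Nos1 were the 2 genes of that list called higher in IP than in Input. Gene by gene, the median difference from NS was -0.19 in SA, -0.11 in SA:ANH, 0.06 in ANH and 0.23 in RES, beside medians over all genes of -0.00 to 0.02. Of 27 tested, 4, 7, 2 and 2 were called lower in these groups and none higher by edgeR. In either direction 16.6%, 19.7%, 7.4% and 4.36% of all genes were called there. The GABA-synthesizing enzyme Gad1 averaged 16.4 CPM in NS IP, 18.5 in ANH and 15.7 in RES, with differences from NS of 0.16 ± 0.20 and -0.07 ± 0.20 that were not called. In SA IP Gad1 averaged 6.78 CPM and in SA:ANH IP 9.92 CPM, both called lower than NS, at -1.252 ± 0.21 and -0.70 ± 0.21. Among 12 other markers of Sst cells, 10 were tested in IP, beside the same shares of all genes. All those called were lower than NS, 2 in SA, 4 in SA:ANH, 1 in ANH and 2 in RES. The list summed to 155 to 196 CPM in SA IP, 149 to 186 in SA:ANH, 176 to 195 in ANH, 170 to 192 in RES and 205 to 240 in NS. Most of this sum too was 2 genes, Nos1 and Satb1, which averaged 72.65 and 67.79 CPM over the IP libraries. One of these markers, Chodl, averaged 0 CPM in SA IP and RES IP.

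**Figure D4:**
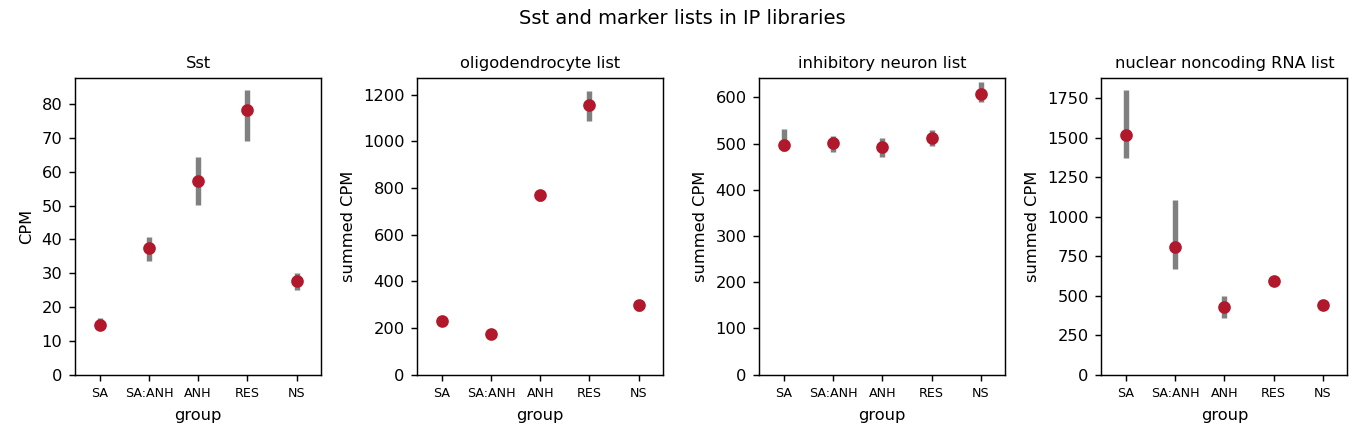
Sst and the summed level of 3 marker lists in the IP groups, in CPM, with the mean of 6 libraries as a point and the range as a grey bar. Oligodendrocyte markers are highest in ANH and RES, the sum of inhibitory neuron markers, most of it Lamp5 and Nos1, is highest in NS, and the nuclear noncoding RNAs are highest in SA.

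Nuclear noncoding RNAs also differed between the IP groups. The 8 genes of that list, which include Malat1 and Meg3, summed to 1369 to 1804 CPM in SA IP, 668 to 1109 in SA:ANH, 561 to 621 in RES, 420 to 460 in NS and 362 to 498 in ANH. SA, the group highest in these, had the lowest Sst and Penk. The part of this in the peptide levels was not tested. Leaving out SA:ANH IP replicate 6, the library with the highest share of these RNAs in its group, Sst, Npy and Cck were still called higher in SA:ANH than in NS. The other SA:ANH libraries also lay above every NS library in this sum, so this fit does not test the part of these RNAs.

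Receptors of these peptides were called against NS in IP in SA:ANH and ANH only. Of 20 receptor genes 18 were tested in IP, where edgeR called 0 in SA and in RES (2 and 3 at an unadjusted p under 0.05), 3 in SA:ANH and 2 in ANH, beside 16.6%, 4.36%, 19.7% and 7.4% of all genes. The CRH receptor Crhr1 was higher in SA:ANH (0.37 ± 0.11) and ANH (0.45 ± 0.11). In SA:ANH the neuropeptide Y receptor Npy1r was also higher (0.32 ± 0.11) and the somatostatin receptor Sstr4 lower (-1.43 ± 0.20). In ANH the delta opioid receptor Oprd1 was higher (0.97 ± 0.27). In Input edgeR called 1 receptor gene in SA, 2 in SA:ANH, 1 in ANH and 3 in RES, beside 2.83%, 5.65%, 2.62% and 3.23% of all genes. There the cholecystokinin receptor Cckbr was called higher in SA:ANH (0.14 ± 0.04), ANH (0.20 ± 0.04) and RES (0.15 ± 0.04), Vipr1 in SA (0.59 ± 0.13) and SA:ANH (0.47 ± 0.13), and Sstr2 in RES (0.35 ± 0.06). Npy1r was lower in RES Input (-0.35 ± 0.10). Against Input, IP held more of 9 of 19 tested receptors and less of 8, where 32.8% of all genes were higher and 42.6% lower. Cckbr stood at 0.23 ± 0.02, Sstr1 at -0.56 ± 0.05, Sstr2 at -0.41 ± 0.04 and Vipr2 at -3.32 ± 0.41.

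The genes that cut, sort and store peptides were mixed in direction. Of 23 such genes 22 were tested in IP, with 4 higher and 3 lower in SA, 5 and 5 in SA:ANH, 5 and 3 in ANH and 2 and 4 in RES. Over all genes 16.6%, 19.7%, 7.4% and 4.36% were called in these comparisons, in either direction. Chgb, a granin of dense-core vesicles, was called lower than NS in all 4 subtypes, at -0.55 ± 0.04 in SA, -0.43 ± 0.04 in SA:ANH, -0.27 ± 0.04 in ANH and -0.15 ± 0.04 in RES. The prohormone convertase Pcsk2 was higher in SA:ANH (0.33 ± 0.04), ANH (0.18 ± 0.04) and RES (0.14 ± 0.04), and the vesicle priming gene Cadps2 lower in the same 3, at -0.85 ± 0.09, -0.59 ± 0.09 and -0.38 ± 0.09. In Input the granins Scg2 and Chga were called lower in all 4 subtypes, Scg2 at -0.14 ± 0.03 to -0.28 ± 0.03 and Chga at -0.17 ± 0.04 to -0.23 ± 0.04. Against Input, IP held less of the carboxypeptidase Cpe (-0.99 ± 0.01) and of the CRH-binding protein Crhbp (-4.46 ± 0.10), and more of Syt4 (1.253 ± 0.02) and Ptprn (0.79 ± 0.02). Of 11 peptide-degrading enzymes 9 were tested in IP and 11 in Input, and edgeR called none against NS in either (0 to 4 of them at an unadjusted p under 0.05).

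Among 45 other peptide precursor genes, 26 were tested between the fractions, where 18 were lower and 5 higher in IP (median -1.17). Over all genes tested 42.6% were lower and 32.8% higher. Tac2, Pnoc and Apln stood at -3.95 ± 0.09, -3.93 ± 0.15 and -4.53 ± 0.18, whereas Adcyap1, the PACAP precursor, stood at 1.03 ± 0.04. Against NS in IP, Vgf, an activity-regulated precursor, was lower in all 4 subtypes, at -0.44 ± 0.06 in SA, -0.69 ± 0.06 in SA:ANH, -0.41 ± 0.06 in ANH and -0.43 ± 0.06 in RES. In Input it was called lower in SA:ANH (-0.35 ± 0.05), ANH (-0.25 ± 0.05) and RES (-0.23 ± 0.05). Grp, gastrin-releasing peptide, was called higher in SA IP (0.87 ± 0.10), and the neurotensin precursor Nts lower in SA:ANH IP (-1.72 ± 0.37) and RES IP (-1.254 ± 0.37).

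The genes whose log2 profile over the 60 libraries lay closest to each peptide, each profile centred on its mean, were mainly genes with a like difference between the fractions. Sst was closest to Csrp1 and Mt2 (root mean square difference 0.40 and 0.40 log2 units), which stood at -3.70 ± 0.04 and -3.78 ± 0.05 in IP against Input. Npy was closest to Prdx6 and Fxyd1 (0.26 and 0.27), Vip to Slc25a18 and Gja1 (0.43 and 0.44) and Tac1 to Glul and Pla2g7 (0.33 and 0.35). Crh was closest to Fabp7 and Zfp36l2 (0.84 and 0.86), and Cort to Plxnb1 (0.44). Penk was closest to Nptx1 and Lhx2 (0.26 and 0.27), Pdyn to Cpe and Slc7a5 (0.20 and 0.20), and Cck to Mtarc2 and Cox8a (0.12 and 0.12). The SD of the peptide's own profile was 1.99 for Sst, 0.53 for Pdyn, 0.44 for Penk and 0.20 for Cck. A smaller distance is therefore not a closer match from one peptide to another.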

How the data were processed

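RNA-seq libraries of mouse mPFC, 30 IP and 30 Input, were made with the SMART-Seq v4 and TruSeq v2 kits and read as 2 × 100 bases, per the labels' protocols. Per the submitters' processing notes, mm10, Bowtie2 2.2.3, TopHat2 2.0.13 and Trimmomatic 0.32 were used, in roles they do not state. No counter or strand setting is given in the sources used here. The authors deposited a table of expected counts per gene (88.4% whole within 0.000001), which were rounded to whole numbers. All 60 columns matched a sample. Reads carry no molecular identifiers, so floors (3 counts) cover counting error only. Gene positions are printed as the table gives them: 0.755% of 38933 genes matched by symbol had the start of the GRCm38 gene table, so the build is not mm10 as that table has it.

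Counts were tested by quasi-likelihood in edgeR 4.0.16 under R 4.3.3, with TMM scaling, filterByExpr at a minimum count of 10 and Benjamini-Hochberg adjustment over all genes tested at 0.05. Fits held 30 IP libraries (16670 genes), 30 Input libraries (18170) or all 60 (18937), with group as the only term. CPM used TMM factors of the 60 libraries, and log2 profiles a prior count of 2. Ratios of counts were tested with scipy 1.17.1. The members, lists and comparisons were chosen with earlier results of these data known. Named genes were the 9 members in every comparison, up to 4 genes of smallest p from each receptor, processing and precursor list in IP against Input and in each comparison with NS, the 2 nearest profiles of each member, and defining markers; Gm and Rik genes were left out of profiles, and some genes the rule allowed are not reported here. Alternatives were RLE factors, DESeq2 1.42.0, limma 3.58.1 voom with quality weights, no filter, a replicate block, fits of the 12 libraries compared alone and, added after seeing the data, leaving out SA:ANH IP replicate 6 and, for IP against Input, each group in turn. No 2 libraries of a group were as alike as repeats of 1 library (chi-square per degree of freedom at least 7.02 in 150 pairs). On simulated data for SA against NS in IP (16670 genes), 14, 29, 34 and 45 of 50 genes changed by 1.25, 1.5, 2 and 4-fold were recovered, with 5.43% of calls false. The changed genes were a small share of all and were drawn only from those of higher counts. These rates therefore do not cover Crh and Cort in IP.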

Additional observations from a re-analysis of the deposited data

Results flagged for a closer look

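The difference from NS was unlike in IP and Input for 14 combinations of gene and subtype, by the test of the difference itself (edgeR, log2, IP change minus Input change, adjusted p under 0.05). In SA these were Sst at -0.82, Penk at -1.31, Cck at 0.15 and Cort at 1.36. In SA:ANH they were Sst at 0.59, Npy at 0.55 and Cck at 0.72. In ANH they were Sst at 1.19, Npy at 1.26, Penk at 0.43, Cck at 0.27 and Tac1 at 0.69. In RES they were Sst at 1.53 and Npy at 0.66. For Sst the SA value is opposite in sign to those of the other 3 subtypes, which share the NS libraries with it.

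In 10 of 90 sets of 6 libraries 1 library stood apart from the other 5 by the gap to its neighbour, where chance gives about 1 in 20. The lowest library stood apart for Npy in ANH IP (replicate 1, 53.0 CPM), Cck in RES IP (replicate 6, 876 CPM), Crh in SA:ANH Input (replicate 4, 3.02 CPM) and Pdyn in SA Input (replicate 6, 41.5 CPM). The highest stood apart for Vip in ANH IP (replicate 3, 5.33 CPM) and in NS IP (replicate 5, 4.698 CPM), Cck in SA:ANH IP (replicate 6, 1706 CPM), Tac1 in SA:ANH IP (replicate 3, 2.85 CPM), Crh in SA IP (replicate 6, 1.01 CPM) and Cort in NS IP (replicate 5, 0.790 CPM). The Crh and Cort libraries in IP rest on 21 and 18 counts.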

How the results depend on the processing

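Of 1477 values for single genes under the alternatives, 1430 kept their call or stayed uncalled, 38 became called and 8 lost the call with the same sign. The call of Cck between the fractions ended, and its sign turned, without the SA:ANH groups (-0.018, adjusted p = 0.366, edgeR), and 10 other values, uncalled in both fits, had the opposite sign. All 11 calls against NS in IP held under every alternative run, as did the 8 other calls between the fractions. Counts of the 9 genes called moved as follows. In IP, SA against RES gave 5 with voom. In Input, SA against NS (0) gave 1, Penk, with voom, DESeq2 and only the 12 libraries compared; RES against NS (0) gave 2 with voom and DESeq2; SA against RES (2) gave 1 with no filter and with 12 libraries; ANH against RES (2) gave 1 with 12 libraries; SA:ANH against SA (1) gave 3 with DESeq2; and SA against ANH (1) gave 2 with RLE factors, voom, DESeq2 and 12 libraries. Cort in SA:ANH Input lost its call with no filter (adjusted p = 0.138) and with 12 libraries (0.0863), by edgeR. The call of Tac1 between fractions in ANH was lost with voom (adjusted p = 0.169, limma). The causes were not tested.

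Counts over all genes in Input moved by more than 1.5 times in 8 comparisons. DESeq2 against edgeR gave 832 and 515 for SA against NS, 764 and 476 for ANH, 934 and 587 for RES, 469 and 200 for SA against RES, 269 and 126 for SA:ANH against RES, 1334 and 766 for ANH against RES, 1030 and 643 for SA:ANH against SA, and 583 and 298 for SA:ANH against ANH. With only the 12 libraries compared the counts were 117, 77, 276 and 173 for SA against RES, SA:ANH against RES, SA:ANH against SA and SA:ANH against ANH, and with no filter 131 for SA against RES.

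The labels do not say that equal replicate numbers pair libraries, so the block was not made the main design. The deviations of same-numbered libraries correlated at -0.068 to 0.085 in IP and -0.162 to 0.071 in Input, with 0 of 6 numbers over 0.1. Between the fractions, libraries sharing a group and a number correlated at a median of 0.04 (highest 0.22), 8 of 30 over 0.1. Of the 6 Input libraries of the same group, 13 of 30 IP libraries correlated best with their own number, a hint from the data and not from the design. The main tests between the fractions leave out any such pairing, and the replicate block includes it. With the replicate block RES against NS in Input gave 2, SA:ANH against SA in Input 2 and SA against ANH in Input 2 of the 9 genes, and Penk in ANH against RES in IP lost its call (adjusted p = 0.0584, edgeR). Low counts limit Crh and Cort in IP.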
